A study of Mus musculus with 2 samples.

Results

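Klrg1, Klrd1, Klre1, Klrb1c, Fcer1g and Tyrobp are genes of natural killer (NK) cell receptors and their signalling adaptors that activated T cells can also express. They were taken by name, and all 6 were among the 2000 genes measured by single-cell RNA-seq in splenic T cells of transplanted mice. The recipients were lethally irradiated wild-type BALB/c mice injected with spleen and bone marrow cells of wild-type C57BL/6 donors, a model of allogeneic haematopoietic cell transplantation. One group of donor cells came from recipients given an anti-IL-2 antibody, which blocks a growth factor of activated T cells. The other came from recipients given tacrolimus, which inhibits calcineurin and so keeps NFAT from being activated by the T-cell receptor. Both treatments began on day 0 and ended on day 6, when the spleens were collected. The labels give the cells as T cells, and give neither the number of recipients behind a library nor a check that host cells were removed. There was 1 library per treatment, so cells are not replicates, no difference between treatments could be tested, and treatment and library cannot be told apart.

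The receptors of this family are lectin-like molecules encoded mostly in the NK gene complex. KLRG1 is an inhibitory receptor that binds cadherins and marks terminally differentiated effector T cells. CD94, the product of Klrd1, has almost no cytoplasmic tail and signals through an NKG2 chain, such as the inhibitory NKG2A encoded by Klrc1, when it binds the non-classical MHC molecule Qa-1. Klre1 encodes a receptor that pairs with KLRI chains. Klrb1c encodes NK1.1, an activating receptor and the classical surface marker of NK and NKT cells in C57BL/6 mice, which couples to the Fc receptor gamma chain encoded by Fcer1g. Tyrobp encodes DAP12. Both adaptors carry an ITAM, a pair of spaced tyrosines that is phosphorylated and then recruits the kinases SYK and ZAP-70, and both are abundant in myeloid cells as well as in NK cells.

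The coding stretches of these motifs show what the adaptors supply to receptors that lack a signalling tail of their own. They were read from GENCODE M21 transcripts (mm10) and run from codon 65 to codon 79 of the 86 codons of Fcer1g and from codon 92 to codon 106 of the 114 codons of Tyrobp, with the 2 tyrosine codons in capitals.
Fcer1g: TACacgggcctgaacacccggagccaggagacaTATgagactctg
Tyrobp: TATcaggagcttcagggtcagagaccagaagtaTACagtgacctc
The capitals lie at codons 65 and 76 in Fcer1g and at codons 92 and 103 in Tyrobp, the same spacing in both.

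In mm10 (GENCODE M21) all 6 are protein-coding genes. Klrd1 lies on chromosome 6 from 129591782 to 129598775, next to Klre1 on chromosome 6 from 129577905 to 129585827, both on the plus strand. Klrb1c lies on chromosome 6 from 128778485 to 128789215 on the minus strand, so these 3 genes fall within 0.820 Mb. Klrg1 lies at lower coordinates of the same chromosome, from 122270596 to 122282882 on the minus strand. Fcer1g lies on chromosome 1 from 171229572 to 171234365 on the minus strand and Tyrobp on chromosome 7 from 30413760 to 30417585 on the plus strand.

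RefSeq promoter windows (GRCm38.p6) were found for 3 of the 6 members, and the bases from 250 before the annotated start to 30 after it are shown because both treatments act on pathways that end in DNA-binding factors. Capitals mark TGTGGT, the core letters of RUNX motifs. The Klre1 window is chr6:129577963-129578242 on the plus strand, the Klrb1c window chr6:128788612-128788891 on the minus strand and the Fcer1g window chr1:171234320-171234599 on the minus strand. The Klre1 and Klrb1c windows lie wholly inside the GENCODE genes given above, because their RefSeq starts are downstream of the GENCODE starts. By GENCODE they are thus not upstream sequence.
Klre1: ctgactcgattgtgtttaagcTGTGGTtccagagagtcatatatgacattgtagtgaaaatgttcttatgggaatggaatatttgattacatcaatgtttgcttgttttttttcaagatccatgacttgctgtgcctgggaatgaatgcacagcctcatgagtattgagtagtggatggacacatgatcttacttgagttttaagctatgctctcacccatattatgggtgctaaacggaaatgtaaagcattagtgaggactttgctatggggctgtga
Klrb1c: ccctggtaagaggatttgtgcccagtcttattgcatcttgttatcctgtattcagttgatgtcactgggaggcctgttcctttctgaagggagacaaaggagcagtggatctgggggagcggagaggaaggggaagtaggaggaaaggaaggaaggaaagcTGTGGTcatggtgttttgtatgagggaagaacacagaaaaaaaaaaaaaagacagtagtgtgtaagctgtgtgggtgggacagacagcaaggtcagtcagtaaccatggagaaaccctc
Fcer1g: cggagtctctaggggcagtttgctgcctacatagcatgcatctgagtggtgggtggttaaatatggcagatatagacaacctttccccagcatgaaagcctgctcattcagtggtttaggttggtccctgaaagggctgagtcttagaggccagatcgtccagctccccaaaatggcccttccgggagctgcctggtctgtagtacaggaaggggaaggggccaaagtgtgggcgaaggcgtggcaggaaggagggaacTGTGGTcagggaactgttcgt
Searched on both strands, TGTGGT was found once in each of the 3 windows, at position -229 from the annotated start in Klre1, at -89 in Klrb1c and at 9 in Fcer1g. Of 32807 windows of the same length, 15.6% held it. In the same windows the T-box letters AGGTGT, the NFAT letters GGAAAA and the STAT letters TTCNNNGAA had no match, and 12.9%, 22.2% and 7.83% of all windows held them. A second Klre1 window, for a start farther downstream, had no match to any of these motifs. A match is a description of the letters and says nothing of binding.

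The libraries held 1551 anti-IL-2 cells (median 11127 UMIs per cell) and 1688 tacrolimus cells (median 12074 UMIs). CD8 T cells were cells with Cd8a or Cd8b1 and no Cd4, and CD4 T cells the reverse, after removal of cells with 2 or more markers of another lineage. No Cd3 gene was among those measured, so none was required. This gave 793 anti-IL-2 and 989 tacrolimus CD8 T cells (medians 13639.9 and 13438 UMIs) and 394 anti-IL-2 and 328 tacrolimus CD4 T cells (medians 8955 and 11014.5 UMIs). The anti-IL-2 file holds batch-integrated values, so a detection (at least 1 UMI) was recovered for each gene and cell after an estimated shift was removed. Of the defining NK genes only Klra7 and Eomes were measured, and Klra7 was in 0.631% of anti-IL-2 and 0.708% of tacrolimus CD8 T cells and in 0% of CD4 T cells of either library.

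**Figure D1:**
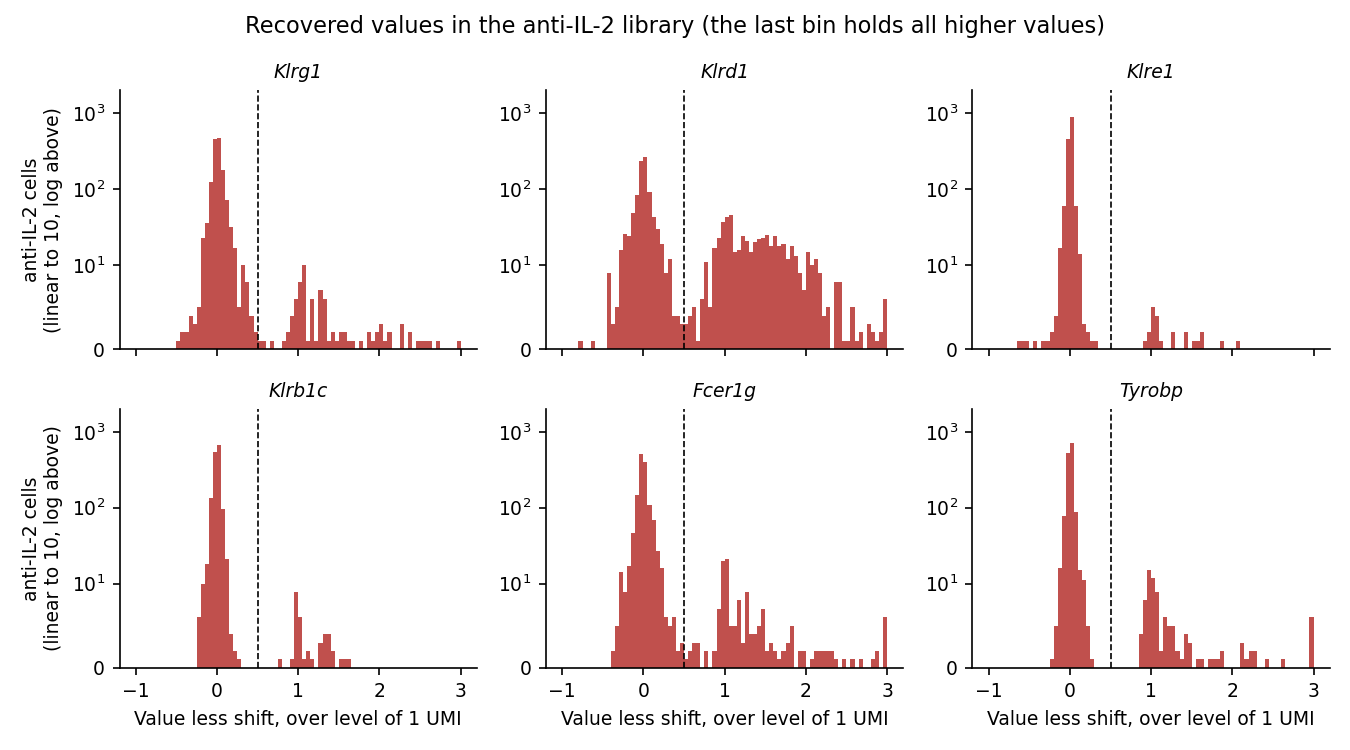
Distribution of recovered values of each gene over the 1551 anti-IL-2 cells, on the horizontal axis as the deposited value less its estimated shift in units of the level of 1 UMI, with cells on a vertical axis that is linear to 10 and logarithmic above. The dashed line at 0.5 separates detections, which for Klre1, Klrb1c and Tyrobp stand clear of the peak at 0.

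How cleanly a detection could be read differed between genes. Klre1, Klrb1c and Tyrobp had 0 anti-IL-2 cells between 0.35 and 0.65 of the level of 1 UMI. Klrg1 had 14 cells from 0.35 to 0.5 and 2 from 0.5 to 0.65 beside 88 detections in all cells, Fcer1g 11 and 6 beside 157, and Klrd1 11 and 12 beside 614. The Klrg1, Fcer1g and Klrd1 shares of anti-IL-2 cells therefore depend on the limit of 0.5 more than the others do.

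Klrd1 was the most widely detected of the 6 genes in CD8 T cells of both libraries. Before depth was matched, Klrd1 was in 56.2% of anti-IL-2 CD8 T cells (95% exact interval 52.7 to 59.7%) and 76.9% of tacrolimus CD8 T cells (74.2 to 79.5%). Klrg1 followed in 7.06% under anti-IL-2 (5.38 to 9.07%) and 21.6% under tacrolimus (19.1 to 24.3%), and Fcer1g in 7.31% (5.60 to 9.35%) and 18.0% (15.7 to 20.5%). The intervals of Klrg1 and Fcer1g overlap in each library, so their order is not resolved. Klre1, Klrb1c and Tyrobp were rare, in 2.14%, 1.26% and 1.77% of anti-IL-2 CD8 T cells and 5.97%, 4.55% and 3.44% of tacrolimus CD8 T cells, with overlapping intervals between neighbours. All intervals here cover counting error only.

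CD4 T cells were described in the same way, at their own depth and so not for comparison with CD8 T cells. Klrd1 was in 19.5% of anti-IL-2 (15.7 to 23.8%) and 26.2% of unthinned tacrolimus CD4 T cells (21.5 to 31.3%), and Klrg1 in 4.57% (2.73 to 7.12%) and 10.4% (7.29 to 14.2%). Klrb1c was in 20 of 394 CD4 T cells under anti-IL-2 (5.08%, 3.13 to 7.73%) and in 4 of 328 under tacrolimus (1.22%, 0.333 to 3.09%). The intervals of Klrb1c and Klrg1 overlap under anti-IL-2, so their order there is not resolved, while under tacrolimus the Klrb1c interval lies below that of Klrg1. Fcer1g was in 1.27% (0.413 to 2.94%) and 6.40% (4.01 to 9.62%), Tyrobp in 0.508% (0.0615 to 1.82%) and 3.05% (1.47 to 5.54%), and Klre1 in 0.508% and 0.305%.

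Free RNA in droplets can give a UMI to a cell that does not express a gene. In 57 anti-IL-2 cells with 2 or more B, plasma-cell or erythroid markers (median 6734 UMIs), Klrg1, Klre1 and Klrb1c were in 0 cells. By its exact interval this count allows up to 6.27%. In 26 such tacrolimus cells (median 17617.5 UMIs), Klre1 and Klrb1c were in 0 cells, which allows up to 13.2%, and Klrg1 in 3.85%. Klrd1 was in 5.26% and 3.85% of these cells, far below its CD8 share. For the adaptors the reading is different, since Fcer1g was in 5.26% of the anti-IL-2 and 11.5% of the tacrolimus cells and Tyrobp in 7.02% and 15.4%. The Tyrobp shares of T cells are at or below this background in both gates and both libraries, and so are the Fcer1g shares of CD4 T cells, so none of these is read as expression in T cells. The Fcer1g shares of CD8 T cells are above it, with intervals that overlap those of the background. For Klre1 and Klrb1c in both gates and Klrg1 in CD4 T cells of both libraries, the background of 0 or 1 cell allows shares as high as those in T cells, so they could not be told from it at this depth. The interval of the single Klrg1 cell of the tacrolimus background, 0.0973 to 19.6%, also overlaps that of the tacrolimus CD8 share. Under anti-IL-2 the Klrg1 background of up to 6.27% overlaps the CD8 interval of 5.38 to 9.07%. These anti-IL-2 background cells were also shallower than the CD8 T cells, whose median was 13639.9 UMIs.

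**Figure D2:**
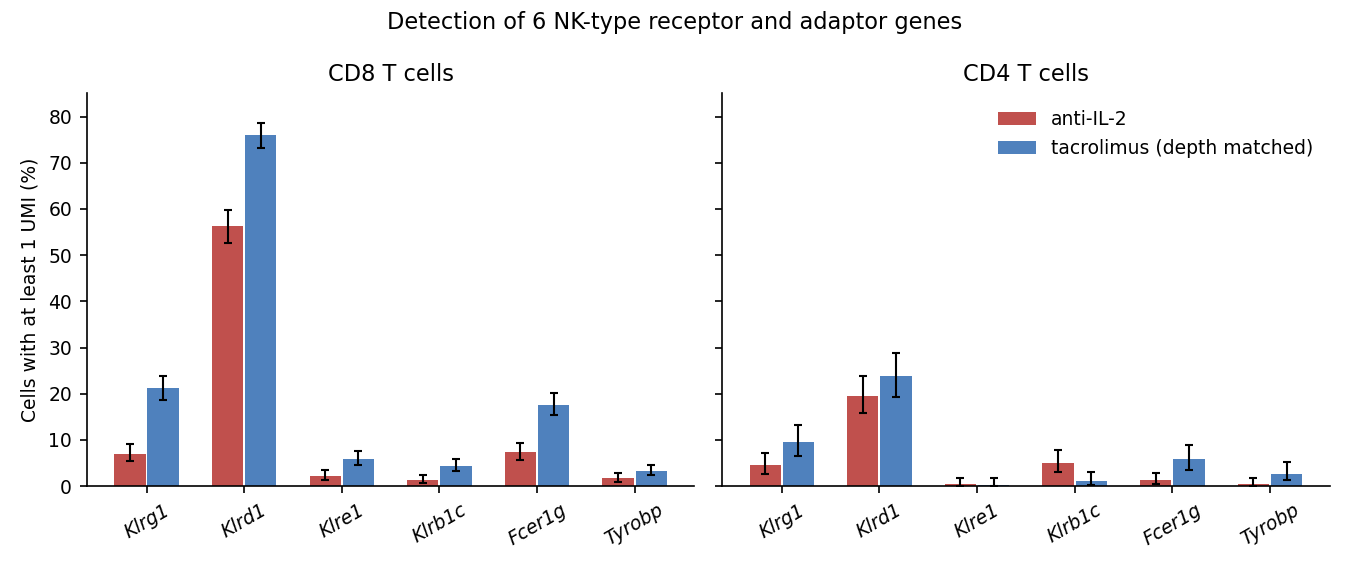
Detection of each gene, as the percentage of cells that held 1 UMI or more, in CD8 (left) and CD4 T cells (right). Bars are the anti-IL-2 library and the tacrolimus library, whose cells were thinned where deeper and left as they were where shallower. Error bars are exact 95% intervals that cover counting error only. Klrd1 is the highest bar in each gate, and Klrb1c is higher under anti-IL-2 than under tacrolimus in CD4 but not in CD8 T cells.

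To compare the libraries, tacrolimus cells deeper than the anti-IL-2 cells of the same depth rank in their gate were thinned to that depth. Shallower ones could not be thinned upward and kept all their UMIs, and both kinds are called depth-matched here. In CD8 T cells the tacrolimus median thus stayed at 13438 UMIs, against 13639.9 under anti-IL-2, so depth was matched only in part. In CD4 T cells it became 8949 UMIs, against 8955. A gene was called where the shares differed at least 1.5-fold and reached 5% in at least 1 library. Klrg1, the inhibitory cadherin receptor, was in 7.06% of anti-IL-2 CD8 T cells and 21.3% of depth-matched tacrolimus CD8 T cells (18.7 to 23.9%), a ratio of 0.332 (0.243 to 0.449). Klre1 was in 2.14% and 5.91%, a ratio of 0.363 (0.20 to 0.637). The intervals of the shares do not overlap for either gene. The Klre1 shares are nonetheless within what the background allows, and the intervals of the unthinned Klrg1 shares overlap those of the background in both libraries.

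Fcer1g, the gamma-chain adaptor, was in 7.31% of anti-IL-2 and 17.6% of depth-matched tacrolimus CD8 T cells (15.4 to 20.2%), a ratio of 0.414 (0.302 to 0.559). These 3 genes were called in fewer anti-IL-2 cells, as were 14.9% of the 922 genes at the minimum share, while 7.59% were called in more. Klrd1 was not called, with 56.2% and 76.0% (ratio 0.740, 0.657 to 0.834), although its intervals do not overlap either. Klre1 reached the minimum only through the tacrolimus library, so a called Klre1 could only be in fewer anti-IL-2 cells.

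Klrb1c and Tyrobp stayed under the minimum in CD8 T cells. Klrb1c was in 10 of 793 cells under anti-IL-2 (1.26%, 0.606 to 2.31%) and in 4.46% at matched depth under tacrolimus (3.25 to 5.93%), a ratio of 0.283 (0.127 to 0.572). Tyrobp was in 1.77% and 3.31%, with a ratio of 0.533 whose interval (0.262 to 1.02) includes 1. Every one of the 6 ratios in CD8 T cells was below 1, and the median log2 ratio over all genes at the minimum was -0.22.

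By mean UMIs per 10000 of a cell's total, which weigh how much a cell holds and were compared for genes in under 20% of cells, Fcer1g stood at 0.123 in anti-IL-2 and 0.419 in tacrolimus CD8 T cells. Tyrobp stood at 0.0505 and 0.050 when each cell counted equally, and at 0.0155 and 0.0539 of every 10000 summed UMIs. The direction of its mean thus depended on the weighting, with up to 7 UMIs in 1 anti-IL-2 cell and 35 in 1 tacrolimus cell.

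**Figure D3:**
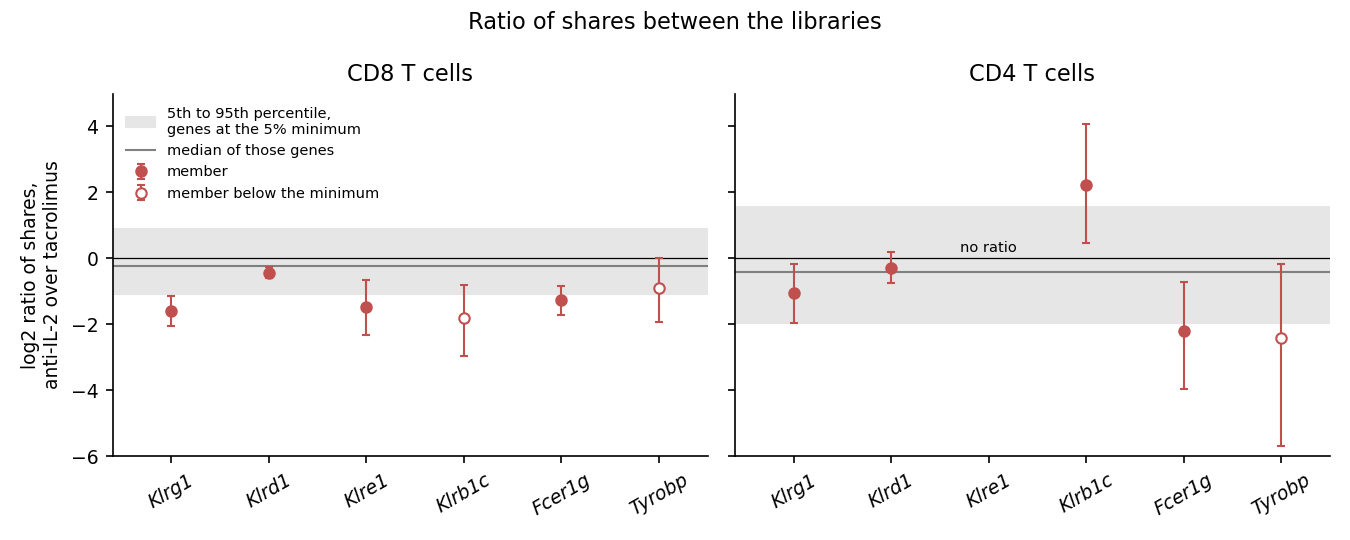
Log2 ratio of shares, anti-IL-2 over tacrolimus, for each gene in CD8 (left) and CD4 T cells (right), with exact 95% intervals that cover counting error only. Tacrolimus cells were thinned where deeper and left as they were where shallower. The grey band is the 5th to 95th percentile and the grey line the median of all genes in at least 5% of cells of a library. In CD8 T cells all 6 points lie below 0, and in CD4 T cells Klrb1c lies at 2.24, above the band, while Klre1 has too few counts for a ratio.

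Klrb1c, the NK1.1 gene, had the opposite direction in CD4 T cells. It was in 5.08% of anti-IL-2 cells and 1.08% of depth-matched tacrolimus cells (0.333 to 3.09%), a ratio of 4.71 (1.39 to 16.7), and was called in more anti-IL-2 cells, as were 11.2% of the 898 genes at the minimum. It passed the minimum only through the anti-IL-2 library and rests on 20 and 4 cells. The log2 ratio was 2.24, and over all alternatives it lay between 2.06 (tacrolimus cells not thinned) and 3.05 (mean UMIs per 10000). With at least 200 detected genes per cell it was 2.88. The alternatives draw on the same few cells and so give no independent support. As said above, Klrb1c could not be told from the background in either library.

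Klrg1 was in 4.57% of anti-IL-2 and 9.47% of depth-matched tacrolimus CD4 T cells (6.51 to 13.1%), a ratio of 0.483 (0.255 to 0.892), and Fcer1g in 1.27% and 5.87% (3.52 to 8.90%), a ratio of 0.216 (0.0639 to 0.607). Both were called in fewer anti-IL-2 cells, as were 42.1% of genes at the minimum, so a count of 2 is near the background. Both reached the minimum only through the tacrolimus library, so a call could only be in fewer anti-IL-2 cells. The intervals of the Klrg1 shares overlap, and the Fcer1g shares are at the level seen in other lineages. Klrd1 was in 19.5% and 23.9%, with a ratio of 0.818 whose interval (0.592 to 1.14) includes 1. Tyrobp was in 2 anti-IL-2 cells and 9 depth-matched tacrolimus cells (ratio 0.186, 0.0195 to 0.894), and Klre1 in 2 cells and 1 cell. The median log2 ratio of all genes at the minimum was -0.42 in CD4 T cells.

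The Klrb1c cells of the CD4 gate were set beside the measured genes that had been listed for other T-cell types. Of 4 such genes, Plac8 was in 1 of the 20 Klrb1c cells and in 17.1% of the 374 others of the anti-IL-2 library, and Cd1d1 in 1 cell and 13.1%. The gamma-delta T-cell genes Blk and Cd163l1 were in 0 of the 20 and in 0% and 2.67% of the others, too rare for 20 cells to tell. Eomes was in 0 of them and in 7.49% of the others, and Klra7 in 0% of both. Plac8 and Cd1d1 were also in 52.5% and 19.0% of anti-IL-2 CD8 T cells without Klrb1c. Their shares thus do not tell whether the 20 cells were NKT cells. The other genes define gamma-delta and NK cells only in part, and the transcription factor gene Zbtb16 was not among the genes analysed here. The Klrb1c cells had a median of 10611 UMIs, the others 8834.

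Markers of myeloid cells, in which both adaptors are abundant, were set beside the adaptors. Cells with 2 or more of 11 myeloid markers, which were left out of the gates, numbered 121 in the anti-IL-2 and 159 in the tacrolimus library. Of these, 62.0% and 66.7% had Fcer1g and 59.5% and 62.3% had Tyrobp, and Fcer1g stood at 3.17 and 4.41 of every 10000 summed UMIs. These cells thus held far more of both transcripts than the gated T cells did. A Cd8 gene was in 43.8% and 39.6% of them.

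Among gated CD8 T cells, 1 or more myeloid marker was in 21.4% of Tyrobp cells and 35.6% of cells without Tyrobp under anti-IL-2, and in 55.9% and 26.8% under tacrolimus. Most of these markers were Cd68, which was in 30.8% of all anti-IL-2 and 24.4% of all tacrolimus CD8 T cells, while Lyz2 was in 0.504% and 0.506%. For Fcer1g the split was 43.1% of Fcer1g cells and 34.7% of cells without it under anti-IL-2, and 30.9% and 27.1% under tacrolimus. Summed over the list, myeloid UMIs per 10000 were 0.293 in Fcer1g cells and 0.316 in the others under anti-IL-2, and 0.277 and 0.263 under tacrolimus.

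In an alternative chosen after seeing the data, without any cell that held a myeloid marker, the log2 ratio of Fcer1g in CD8 T cells was -1.38, against -1.27 with them, and that of Tyrobp 0.10, against -0.91. The Tyrobp ratio thus had no stable direction. The Fcer1g difference was as large without these cells.

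Division state was read from detected cell-cycle genes, as G2/M with 3 or more of 16 G2/M genes, otherwise G1/S with 3 or more of 15 G1/S genes, otherwise non-dividing. Such a class is a range of a count and not a type, and between 7.28% and 14.6% of cells of a gate had 2 or 3 G2/M genes, next to the limit. Of anti-IL-2 CD8 T cells 175 were non-dividing, 117 in G1/S and 501 in G2/M, and of tacrolimus CD8 T cells 78, 62 and 849. The libraries thus differ in their mix of states, and depth was greater in dividing cells, with median UMIs of 9584, 12573 and 18387 in the anti-IL-2 states and 6788, 9110 and 14609 in the tacrolimus states.

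**Figure D4:**
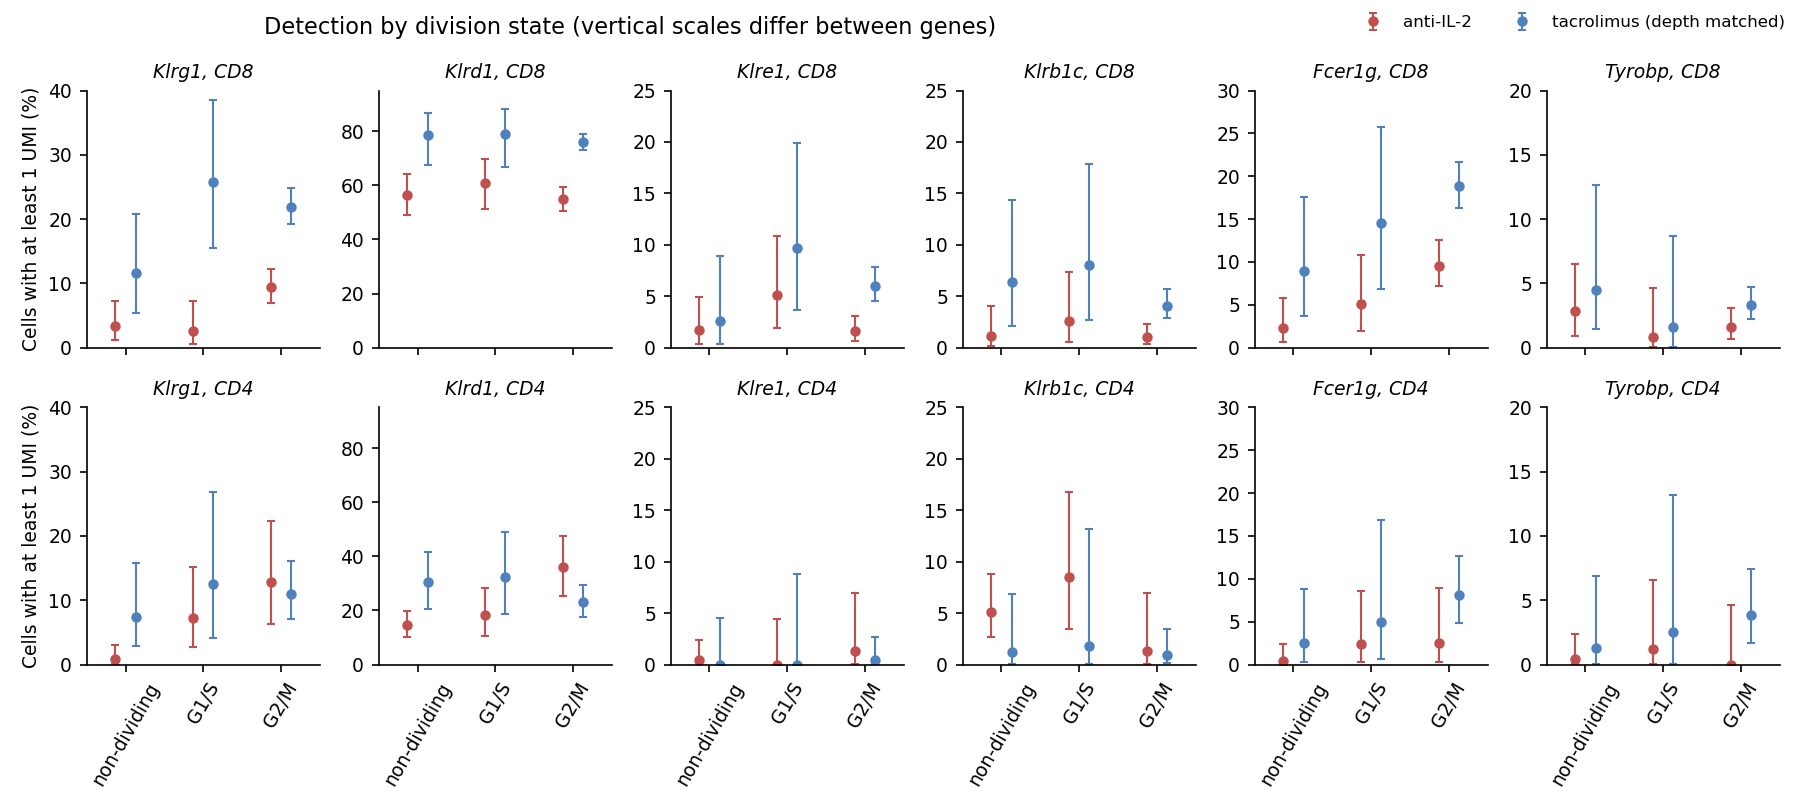
Share of cells with at least 1 UMI (%) by division state, CD8 T cells above and CD4 T cells below, 1 column per gene. Points are anti-IL-2 cells and tacrolimus cells thinned only where deeper, with exact 95% intervals (counting error only). Depth was therefore not matched within CD8 states, nor in G1/S and G2/M CD4 T cells. Klrg1, Klrd1 and Fcer1g are lower under anti-IL-2 in each CD8 state, while Klrg1 and Klrd1 in CD4 T cells differ between the libraries most in non-dividing cells.

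The difference between libraries in CD8 T cells was present at each stage for Klrg1. Among non-dividing cells it was in 3.43% under anti-IL-2 and 11.5% under tacrolimus (ratio 0.297, 0.0870 to 0.935). Among G1/S cells it was in 2.56% and 25.8% (ratio 0.0994, 0.0186 to 0.347), and among G2/M cells in 9.38% and 21.9% (ratio 0.428, 0.304 to 0.592). The 3 intervals all lie below 1. By median UMIs the tacrolimus cells of each of these states were shallower than the anti-IL-2 cells and could not be thinned upward, so depth was not matched within states. Most anti-IL-2 totals are fitted, and fitted totals were somewhat too high in simulated data. The part of depth in these differences was not tested.

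Klrd1 kept the same order in each state, with 56.6%, 60.7% and 55.1% of anti-IL-2 CD8 T cells in non-dividing, G1/S and G2/M cells and 78.6%, 79.0% and 76.0% of tacrolimus cells. The interval of the ratio excluded 1 in G2/M cells (0.725, 0.627 to 0.836) and not in non-dividing (0.720, 0.521 to 1.01) or G1/S cells (0.768, 0.526 to 1.13). Fcer1g was in 2.29%, 5.13% and 9.58% of anti-IL-2 cells and 8.97%, 14.5% and 18.9% of tacrolimus cells, and the ratio was resolved from 1 in G2/M cells (0.507, 0.360 to 0.706). The Fcer1g share was thus higher in each later state of both libraries, in which cells were also deeper.

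Klre1 and Klrb1c were lower under anti-IL-2 in G2/M CD8 T cells, where most cells lie. Klre1 was in 1.6% of anti-IL-2 and 5.96% of tacrolimus G2/M cells (ratio 0.268, 0.109 to 0.564), and Klrb1c in 0.998% and 4.07% (ratio 0.245, 0.0740 to 0.621). In the smaller states their intervals included 1. Tyrobp intervals included 1 in every CD8 state, with 2.86%, 0.855% and 1.6% under anti-IL-2 and 4.52%, 1.61% and 3.36% under tacrolimus.

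Among CD4 T cells Klrg1 and Klrd1 differed between libraries in non-dividing cells. Klrg1 was in 2 of 234 anti-IL-2 cells (0.855%) and 7.47% of tacrolimus cells (ratio 0.114, 0.0111 to 0.629), and Klrd1 in 14.5% and 30.4% (ratio 0.478, 0.275 to 0.843). In G2/M cells Klrg1 was in 12.8% and 11.0% (ratio 1.17, 0.495 to 2.54) and Klrd1 in 35.9% and 23.2% (ratio 1.55, 0.944 to 2.54). In G1/S cells the ratios were 0.585 for Klrg1 (0.149 to 2.42) and 0.564 for Klrd1 (0.25 to 1.29). The ratios of both genes thus lay below 1 in non-dividing and G1/S cells and above 1 in G2/M cells, and the intervals of the G1/S and G2/M ratios included 1. Median UMIs of anti-IL-2 and thinned tacrolimus CD4 T cells were 6919 and 6901 in non-dividing cells. They were 10829 and 9781 in G1/S and 15412 and 13140 in G2/M cells, so depth was not matched there. The part of depth in this change of direction was not tested. For Klrb1c the non-dividing shares were 5.13% under anti-IL-2 and 1.27% under tacrolimus (ratio 4.05, 0.599 to 173). The G1/S shares were 8.54% and 1.79% (ratio 4.76, 0.439 to 154). Each of these tacrolimus shares rests on about 1 cell and both intervals include 1, so neither Klrb1c difference is resolved. In G2/M, Klrb1c was in 1 of 78 cells under anti-IL-2 and 2 of 209 under tacrolimus. Of all anti-IL-2 CD4 T cells 19.8% were in G2/M.

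Within each library, cells were then thinned to 5000 UMIs, leaving out shallower cells. Thinning recovered UMIs needs their number and not only a detection, so anti-IL-2 values at this depth are less certain than those of tacrolimus cells. At this depth Klrd1 was in 29.5% of G2/M and 49.5% of non-dividing anti-IL-2 CD8 T cells (ratio 0.596, 0.445 to 0.818), a call of fewer G2/M cells, as for 13.8% of genes, while 39.8% were called in more. In tacrolimus CD8 T cells it was in 56.2% and 82.5% (ratio 0.681, 0.503 to 0.928), short of the 1.5-fold limit. Unthinned, the Klrd1 shares of G2/M and non-dividing cells were 55.1% and 56.6% under anti-IL-2 and 76.6% and 79.5% under tacrolimus. At equal depth Klrd1 was thus detected in a smaller share of dividing cells in both libraries, while the shares at full depth were close.

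In tacrolimus CD8 T cells at 5000 UMIs, Fcer1g was in 11.7% of G2/M and 6.29% of non-dividing cells (ratio 1.86, 0.651 to 6.45), called in more, as were 45% of genes. Klrb1c was in 2.02% and 6.61% (ratio 0.305, 0.0995 to 1.2), called in fewer, as were 13.2% of genes. Both intervals include 1 and the non-dividing group held 59 cells. Klrb1c reached 5% only in non-dividing cells, so it could only be called in fewer G2/M cells. Klrg1 was not called, with 12.5% and 10.4%, and its log2 ratio of 0.26 became -0.36 when 5 genes rather than 3 set the states.

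For CD4 T cells at the same depth, Klrg1 was in 8.93% of G2/M and 0.760% of non-dividing anti-IL-2 cells (ratio 11.7, 1.81 to 686, from a non-dividing group with about 1 Klrg1 cell after thinning). It was called in more G2/M cells, as were 38.9% of genes, while 18.5% were called in fewer. Under tacrolimus the same shares were 5.88% and 8.56% (ratio 0.686, 0.225 to 2.48). Klrd1 was in 19.1% of G2/M and 13% of non-dividing anti-IL-2 CD4 T cells (ratio 1.47, 0.720 to 3.07) and was not called. Among tacrolimus CD4 T cells it was in 13.9% and 24.8% (ratio 0.560, 0.279 to 1.14), called in fewer, as were 12.6% of genes, while 47.2% were called in more.

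CD8 and CD4 T cells of each library were compared at 5000 UMIs too. Under anti-IL-2 Klrd1 was in 35.2% of CD8 and 13.9% of CD4 T cells (ratio 2.53, 1.82 to 3.51), called in more CD8 T cells, as were 34.1% of genes. Klrg1 was in 3.47% and 3.69% (ratio 0.939, 0.461 to 2.08) and Fcer1g in 2.87% and 0.801% (ratio 3.58, 0.956 to 16.8), both under the minimum. Klrb1c was in 0.716% of CD8 and 3.11% of CD4 T cells (ratio 0.231, 0.0613 to 0.734), and under tacrolimus this ratio was 5.6 (1.22 to 309), on the other side of 1. The difference between the ratios was not tested.

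Under tacrolimus CD8 T cells held 3 of the genes more widely than CD4 T cells at the same depth. Klrd1 was in 58.8% of CD8 and 16.8% of CD4 T cells (ratio 3.50, 2.62 to 4.8), Fcer1g in 11.0% and 3.51% (3.13, 1.68 to 6.91) and Klrg1 in 12.7% and 6.61% (1.93, 1.20 to 3.37). These 3 were called in more CD8 T cells, as were 8.7% of 793 genes. Fcer1g reached 5% only in CD8 T cells, so no other call was possible for it. Klrb1c was in 2.53% and 0.451% and Klre1 in 2.63% and 0.0829%, under the minimum.

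How many of the genes a cell carried was counted next. Of anti-IL-2 CD8 T cells 36.2% held 0 of the 6, 53.0% held 1, 9.84% held 2, 0.883% held 3 and 1 cell held 4. Of tacrolimus CD8 T cells, unthinned, 15.1% held 0, 48.5% held 1, 28.2% held 2, 7.18% held 3 and 10 cells held 4. No cell of either library held 5 or 6. In CD4 T cells 71.1% held 0 under anti-IL-2 and 59.8% under tacrolimus.

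A receptor together with an adaptor was in 5.55% of anti-IL-2 and 17.6% of tacrolimus CD8 T cells, and a receptor with no detected adaptor in 55.0% and 64.5%. An adaptor without a receptor was in 3.28% of anti-IL-2 and 2.83% of tacrolimus CD8 T cells. No number expected from the single-gene shares was computed for these classes. The adaptors include Tyrobp, whose shares were not read as expression in T cells. Among CD4 T cells the combination was in 3 anti-IL-2 and 8 tacrolimus cells.

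**Figure D5:**
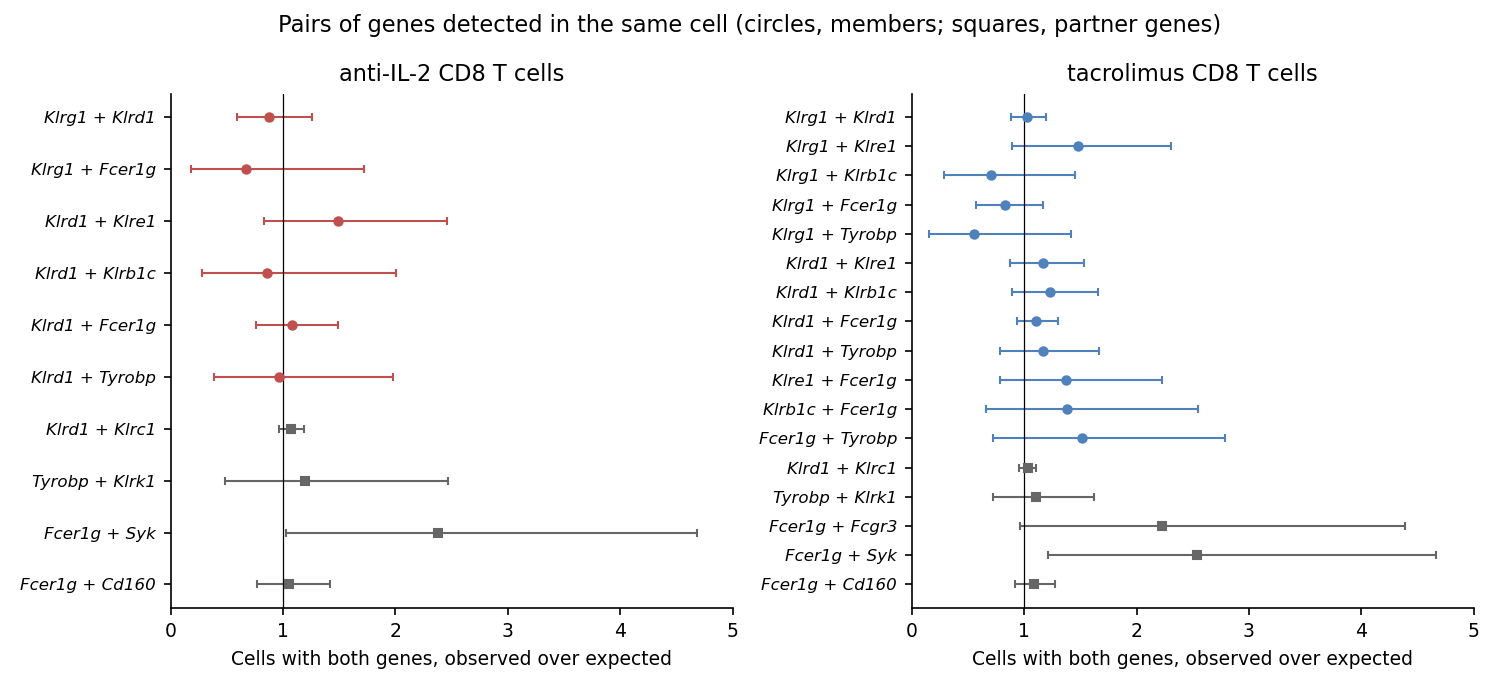
Number of CD8 T cells with both genes of a pair over the number expected from their shares within 5 strata of depth, for pairs with at least 3 expected cells, anti-IL-2 on the left and tacrolimus on the right, with exact Poisson 95% intervals. Intervals of member pairs (circles) hold 1, but they ignore the limit that the rarer gene sets and are too wide for pairs with Klrd1. Fcer1g with Syk (squares) lies above 1 in both libraries.

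Deeper cells hold more genes, so the number of cells with both genes of a pair was compared with the number expected within 5 strata of depth. Klrg1 and Klrd1 were together in 29 anti-IL-2 CD8 T cells, with 33.1 expected (ratio 0.876, 0.586 to 1.26), and in 171 tacrolimus cells, with 166 expected (1.03, 0.880 to 1.19). The observed counts of this pair were thus close to the expected ones in both libraries. For Klrg1 with Fcer1g the ratios were 0.671 (0.183 to 1.72) and 0.830 (0.568 to 1.17). Of the 15 member pairs, 0 had an interval that left out 1 in CD8 T cells of either library. An observed count of 0 allows up to 3.69 cells, so the interval of a pair with fewer expected cells could not lie below 1. This was so for Klrb1c with Tyrobp under anti-IL-2 (0.143 expected) and for other rare pairs. These Poisson intervals ignore that a pair cannot be in more cells than its rarer gene. They are thus too wide to decide on pairs with the common Klrd1. For Klrd1 with Klrb1c under tacrolimus the upper limit was 57.9 cells, although only 45 cells held Klrb1c.

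The member pair whose interval came nearest to leaving out 1 was Klrd1 with Fcer1g under tacrolimus, with 150 cells observed and 135 expected (1.11, 0.938 to 1.30), against 37 observed and 34.2 expected under anti-IL-2 (1.08, 0.762 to 1.49). Fcer1g and Tyrobp were together in 2 anti-IL-2 cells (ratio 2.34, 0.284 to 8.46) and 10 tacrolimus cells (1.52, 0.728 to 2.79). These intervals all hold 1. Klrd1 was in 15 of 17 Klre1 cells under anti-IL-2 (ratio 1.49, 0.833 to 2.46) and in 53 of 59 under tacrolimus (1.17, 0.878 to 1.53). It was in 5 of 10 Klrb1c cells under anti-IL-2 (0.861, 0.279 to 2.01) and in 43 of 45 under tacrolimus (1.23, 0.891 to 1.66). Among cells without Klrb1c, Klrd1 was in 56.3% and 76.1%. Klrb1c and Fcer1g, a receptor and its adaptor, were together in 0 anti-IL-2 cells (0.527 expected) and 10 tacrolimus cells (7.22 expected, ratio 1.39, 0.664 to 2.55). Most cells with NK1.1 transcripts had no detected Fcer1g, which at this depth does not show that the adaptor is absent.

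Known partners outside the 6 genes were looked at in the same way. NKG2A, encoded by Klrc1, was detected in 85.9% of Klrd1 cells and 68.0% of cells without Klrd1 among anti-IL-2 CD8 T cells, and in 95.4% and 81.1% among tacrolimus CD8 T cells. Within depth strata the CD8 ratios were 1.07 (383 cells observed, 358 expected, 0.966 to 1.18) and 1.03 (726 observed, 704 expected, 0.958 to 1.11). These Poisson intervals hold 1, but they ignore that the count cannot exceed the 446 and 761 Klrd1 cells. For genes this common they are too wide to decide whether the 2 chains go together in CD8 T cells. Among CD4 T cells Klrc1 was in 37.7% of Klrd1 cells and 7.26% of the others under anti-IL-2 (29 cells observed, 12.8 expected, ratio 2.27, 1.52 to 3.26), and in 80.2% and 55.0% under tacrolimus (69 observed, 53.8 expected, ratio 1.28, 0.997 to 1.62). Both chains of the CD94/NKG2A receptor were thus detected together in CD8 T cells and, in fewer cells, in CD4 T cells.

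Syk, the kinase that binds phosphorylated ITAMs, was in 13.8% of Fcer1g cells and 3.40% of the others among anti-IL-2 CD8 T cells (8 observed, 3.37 expected, ratio 2.38, 1.03 to 4.68). Under tacrolimus it was in 5.62% and 1.11% (10 observed, 3.94 expected, ratio 2.54, 1.22 to 4.67). The Fc receptor gene Fcgr3 was in 5.17% and 1.77% under anti-IL-2 (3 observed) and 4.49% and 1.73% under tacrolimus (8 observed, 3.59 expected, ratio 2.23, 0.962 to 4.39). Syk and Fcgr3 are also genes of myeloid and B cells, and the part of such transcripts in these pairs was not tested. Cd160 and Fcer1g were together in 44 anti-IL-2 cells, with 41.6 expected, and 153 tacrolimus cells, with 141 expected.

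The genes most like each member were taken as the 5 with the largest difference between the share in cells with and without it, averaged over 5 depth strata of tacrolimus CD8 T cells, among 882 or 883 genes in at least 5% of them. For Klrg1 these were Wdr95 (61.7% and 33.5%), the integrin alpha X gene Itgax (64.0% and 40.3%), Plac8, the granzyme gene Gzmk (88.3% and 69.4%) and the chemokine receptor gene Ccr2. The same differences in anti-IL-2 CD8 T cells, which were not used to choose them, were 34.3, 22.4, 21.7, 29.6 and 29.2 points, against 27.7, 23.3, 18.3, 17.5 and 16.7 points under tacrolimus. All 5 were thus also in more Klrg1 cells of the anti-IL-2 library, where the median over all genes was 0.0335 points.

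For Klrd1 the 5 were Cd7, Ccr2, Klrk1, Il7r and Ccl5, with differences under anti-IL-2 of 19.5 points for Cd7 and 20.7 points for Klrk1, the NKG2D gene, against 25.6 and 21.6 points under tacrolimus. Ccr2 did not repeat, with -0.54 points under anti-IL-2 and 23.0 points under tacrolimus. For Klre1 they were Klrk1, Eomes, Ccl3, Ccr2 and Lilr4b, with 15.4 points for Klrk1 and 11.2 points for the T-box gene Eomes over 17 anti-IL-2 Klre1 cells, against 21.1 and 17.1 points under tacrolimus.

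For Klrb1c the 5 were Cd7, Ifi47, Cxcr6, Cd160 and Klrd1, led by Cd7 at -7.61 points under anti-IL-2 and 32.3 points under tacrolimus. Of the 5, Cd160 alone was above 0 in the 10 anti-IL-2 Klrb1c cells of the CD8 gate (24.6 points). For Fcer1g they were AA467197, Gsn, Ccl4, Capg and Klrd1, with 17.1 points for AA467197 and 14.2 points for the actin-capping gene Capg under anti-IL-2, against 14.5 and 10.9 points under tacrolimus. Gsn did not repeat, with -1.56 points under anti-IL-2 and 13.1 points under tacrolimus. For Tyrobp, Ccl6 led with 27.2 points under anti-IL-2 (35.7% of Tyrobp cells and 8.73% of the others) and 27.7 points under tacrolimus (35.3% and 7.23%), followed by Zfos1, Ergic1, Lap3 and Ifi27l2a. Of these, Zfos1 stood at -10.98 points, Ergic1 at 5.06, Lap3 at 0.13 and Ifi27l2a at 12.3 points in the 14 anti-IL-2 Tyrobp cells, against 22.8, 22.1, 20.1 and 19.2 points under tacrolimus. Ccl6 is a chemokine gene of myeloid cells, and the part of such transcripts in this result was not tested.

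Cells with a member also differed in depth. Under anti-IL-2 the median was 22893 UMIs in Klrg1 CD8 T cells and 13275 in the others, and 20784 in Fcer1g cells. Under tacrolimus Klrg1 cells had 14176 and the others 13318 UMIs, and Fcer1g cells 16180. The Klrg1 cells of the anti-IL-2 library were thus deeper than the others by more than those of the tacrolimus library.

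Of 37 other NK-type receptor genes listed, 14 were measured. In CD8 T cells 6 of them reached the minimum, of which Crtam, an adhesion receptor of activated cytotoxic cells, was in more anti-IL-2 cells (35.3% and 19.2%, ratio 1.84, 1.52 to 2.22), 0 were in fewer and 5 were neither, against 7.59% of all genes in more and 14.9% in fewer, with a list median log2 ratio of -0.25. Klrk1, at 46.3% and 66.8%, and Klrc1, at 78.1% and 91.0%, were among the 5. For CD4 T cells 5 reached the minimum, and Klrc1 (13.2% and 57.5%, ratio 0.230, 0.165 to 0.313) and Klrk1 (2.79% and 5.09%, ratio 0.549, 0.228 to 1.22) were in fewer anti-IL-2 cells, a count near the 42.1% of all genes, with a list median of -0.20. Klrk1 reached the minimum only through the tacrolimus library, so it could only be called in fewer. For Klrd1, the partner chain of Klrc1, the ratio in CD4 T cells was 0.818.

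Of 24 further genes of ITAM and adaptor signalling 4 were measured, among them Syk, Lat2 and Lyn. Lat2, which encodes a membrane adaptor of the LAT family, was in 8.20% of anti-IL-2 and 14.9% of tacrolimus CD8 T cells (ratio 0.549, 0.403 to 0.738) and was called in fewer, as were 14.9% of all genes, and Lyn was neither. Syk, under the minimum, was in 4.16% and 1.92% (ratio 2.17, 1.20 to 4.03), the opposite direction to Fcer1g. Syk, Lat2 and Lyn were under the minimum in CD4 T cells.

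Of 34 listed genes of terminal effector and tissue-resident-like T cells 22 were measured, and the list was chosen with earlier results of these data known. In CD8 T cells 17 reached the minimum, with 4 in fewer anti-IL-2 cells (Gzmc, 3.53% and 15.3%; Gzmm; Itga1, 4.79% and 18.7%; Itgax, 22.4% and 44.4%), 2 in more (Xcl1 and Ikzf2) and 11 neither, against 14.9% of all genes in fewer and 7.59% in more, and a median log2 ratio of -0.20. Cx3cr1, a marker of terminal effector cells like Klrg1, was neither, with 12.7% and 10.2%, and Eomes stood at 33.9% and 33.4%. Of the 14 at the minimum in CD4 T cells 8 were in fewer anti-IL-2 cells (Id2, Itga1, Gzmb, Gzmc, Gzmm, Prf1, Ccl5 and Cxcr6) and 0 in more, against 42.1% and 11.2% of all genes, with a median of -0.85. Gzmc, Gzmm and Itga1 reached the minimum only through the tacrolimus library in both gates, so they could only be called in fewer anti-IL-2 cells. The median over all genes at the minimum was -0.22 in CD8 and -0.42 in CD4 T cells.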

How the data were processed

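Splenic T cells were profiled with a 10x 5′ kit on a NextSeq500, per the labels' protocols. Cell Ranger 3.1.0, Seurat (no version) and mm10 are named in the submitters' processing notes. Per the file values, the authors deposited natural log values of 2000 genes per cell after scaling each cell to 50000. The sources used here do not say how cells and genes were selected. TCR libraries were not analysed here. The members and lists were chosen with earlier results of these data known.

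Tacrolimus values gave whole UMIs (tolerance 0.001) in 100% of cases and whole cell totals (tolerance 0.01). Its file repeats 308 anti-IL-2 columns, which were used once. Of barcodes, 4 occur in both libraries. Among the anti-IL-2 values 13.9% are below 0 and 42.0% exactly 0, as after batch integration, so shares of detections were read after recovery; the Cd3 genes that the planned gate needed were not measured. Each cell's total was fitted, and each gene's shift was estimated by likelihood over 30 neighbouring cells. Totals were readable directly for 184 cells (2 or more values) and 190 cells (1 value). Fits blind to them were within 1.25-fold in 96.7% and 95.3%.

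Settings of both steps were compared on other simulated libraries, on those cells and, for the shift, on the members' own calls. They are therefore in part fitted to these data. Recovery was then tested on simulated data, a further pair made from tacrolimus cells with known changes and integrated with Seurat 5.3.0 in R 4.3.3, which was used for no choice. Detections were recovered closely there. Fitted totals were somewhat too high, so tacrolimus cells thinned to them are slightly too deep, which makes ratios slightly too low. Tacrolimus cells below the fitted depth were not thinned. Large increases were understated. Thinned anti-IL-2 shares were too low, most of all for genes in most cells. Cell states rare among tacrolimus cells were not covered.

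Python 3 scripts with numpy, scipy and scikit-learn gave exact (Clopper-Pearson) intervals. Intervals of ratios are exact and conditional on the sum of the 2 counts, and depth-matched shares are expected values under binomial thinning, rounded to whole cells for intervals. All intervals cover counting error only, not the error of recovery or of a second animal. A ratio was left out where both counts were 3 or fewer. Doublets were not removed. No listed dendritic-cell filter gene was measured. Genes named are the members, listed partners, up to 8 list genes past the 1.5-fold rule and, for members in 20 or more tacrolimus CD8 T cells, the 5 genes most like them. Syk, Lyn, Cx3cr1 and Eomes, and Klrc1 and Klrk1 in CD8 T cells, were named after their values were seen. One measured list gene is not reported here.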

Additional observations from a re-analysis of the deposited data

How the results depend on the processing

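No paired analysis was possible because there is 1 library per treatment. Over 51 results, 200 of 207 values under other settings moved by less than the counting interval, 7 moved by more, and 0 called values changed sign. With the integration shift left in, the log2 ratios in CD8 T cells were -0.029 for Klrd1 and -0.68 for Fcer1g, and 72 genes in place of 137 were in fewer anti-IL-2 CD8 T cells; the cause was not tested. By mean UMIs per 10000 the Fcer1g ratio in CD8 T cells was -1.77. Unthinned, Klrd1 in G2/M over non-dividing CD8 T cells was -0.04 under anti-IL-2 and -0.05 under tacrolimus; the cause was not tested. Tyrobp without cells with a myeloid marker was 0.10. Over all alternatives the CD8 ratios lay between -1.98 and -1.16 for Klrg1, -1.63 and -1.24 for Klre1, and -2.19 and -1.51 for Klrb1c, and the CD4 ratio of Klrb1c between 2.06 and 3.05. The setting with no Cd3 gene needed is the same as the gate used, so it was not run. A local median in place of the likelihood, and the 2 settings on other-lineage and myeloid markers, were chosen after seeing the data. Depth limits the rare genes most, since Klre1 and Klrb1c have 17 and 10 detections in anti-IL-2 CD8 T cells.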
